A study of Mus musculus with 14 samples.

Results

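In aged hematopoietic stem cells (oHSCs) that received guide RNAs against Clu, 71 genes lay higher in each of the 4 Clu knockout (sgClu) libraries than in any of the 3 control (sgCtrl) libraries. They were chosen from the 583 genes of the deposited Clu KO comparison by that separation itself, with 10 separating genes that the series also lists in its comparison of oHSCs with young HSCs (yHSCs) left out, and 3 further genes excluded by name, 2 of which separated the groups. The choice therefore used these same values, and every level and fold change given here for the members is a description without a test. By the rule no member is listed in the deposited age comparison, so only these 7 libraries give values for them here.

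Both groups were oHSCs of 24-month-old Rosa26-Cas9 knock-in mice of both sexes, in which Cas9 is built into the Rosa26 locus, so control cells carried Cas9 as well. Sorted oHSCs were infected with lentivirus carrying mCherry and a guide cassette driven by the U6 promoter, either 3 guides against Clu packaged together (sgClu) or a control guide (sgCtrl). The mCherry+ cells were transplanted, mixed with CD45.1 competitor cells, into CD45.1 mice 2 months old that had been irradiated at a lethal dose, and donor-derived oHSCs were sorted from bone marrow 4 months later. A library therefore holds a pool of cells with different edits and possibly unedited cells, in young irradiated hosts whose remaining CD45.1 cells are separated from the donor cells by the sort. RNA was amplified by SMART-Seq v4, a full-length method for few cells, and the values were taken as FPKM, the fragments of a gene scaled by its transcript length and by the mapped fragments of the library. The labels name the cells hematopoietic stem and progenitor cells and do not say whether the libraries came from separate mice, so the spread between them may be partly technical. In bulk libraries such as these, fewer cells of a type and less RNA per cell cannot be told apart.

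Clu encodes clusterin, a chaperone that is secreted and also found in the cytosol. HSCs divide rarely and are known for low rates of protein synthesis and a low reliance on mitochondrial respiration. The members belong to several basic cell machines. Splicing particles remove introns from new transcripts, RNA polymerases and the Mediator and acetyltransferase complexes that work with them make and regulate those transcripts, and translation factors and tRNA enzymes turn them into protein.

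The 3 Clu guides are shown because they define the sgClu group. They match exons 3, 4 and 5 of the 9 exons of the longest annotated Clu transcript on chromosome 14 (GRCm38, GENCODE M21), at chr14:65973360-65973379 and chr14:65974896-65974915 on the plus strand and at chr14:65975875-65975894 on the minus strand. Lower case letters are the 20 bases of the guide and capitals the adjacent PAM in the transcript.
Clu sgRNA 1: gagattcagaacgccgtccaGGG
Clu sgRNA 2: agtgtgtaacgagaccatgaTGG
Clu sgRNA 3: aacatgttgtggaagctcggAGG
Clu itself is not among the 583 genes, so the group labels were not checked against the targeted gene.

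Promoters are shown for 5 members, since members that moved together may be read beside their start regions: the members with the largest and the second largest log2 fold change (Nr0b2 and Sf3a2), Rbm38 and Polr3gl, which are among the 5 members with the widest gap between the groups at an sgClu mean of at least 5 FPKM, and Ubl7, chosen after its promoter was seen to hold 3 ETS cores. Each run goes 5′ to 3′ from 250 bases before to 50 bases after a RefSeq gene start (GRCm38.p6), and capitals mark 6 short motifs searched on both strands. They were the TATA box with the letters TATAAA, the GC box with the letters GGGCGG, the CCAAT box searched by the letters of its name, the ETS core with the letters CCGGAA, the core of the CRE (the cyclic AMP response element) with the letters TGACG and the E box with the letters CACGTG. Matches of different motifs did not overlap each other in any of the 51 member promoters.
Nr0b2, chr4:133553126-133553425, plus strand: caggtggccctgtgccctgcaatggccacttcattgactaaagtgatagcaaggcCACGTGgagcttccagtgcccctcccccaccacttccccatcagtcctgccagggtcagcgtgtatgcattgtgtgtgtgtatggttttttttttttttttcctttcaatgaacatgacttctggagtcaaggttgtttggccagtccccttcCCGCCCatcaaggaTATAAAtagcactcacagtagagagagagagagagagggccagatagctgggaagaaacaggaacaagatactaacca
Sf3a2, chr10:80798485-80798784, plus strand: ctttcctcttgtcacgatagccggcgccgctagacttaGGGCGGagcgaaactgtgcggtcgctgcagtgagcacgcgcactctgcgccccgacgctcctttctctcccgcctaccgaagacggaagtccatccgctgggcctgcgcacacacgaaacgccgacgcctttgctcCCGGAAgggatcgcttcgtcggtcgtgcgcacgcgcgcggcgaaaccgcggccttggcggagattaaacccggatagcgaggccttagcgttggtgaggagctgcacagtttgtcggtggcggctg
Rbm38, chr2:173021652-173021951, plus strand: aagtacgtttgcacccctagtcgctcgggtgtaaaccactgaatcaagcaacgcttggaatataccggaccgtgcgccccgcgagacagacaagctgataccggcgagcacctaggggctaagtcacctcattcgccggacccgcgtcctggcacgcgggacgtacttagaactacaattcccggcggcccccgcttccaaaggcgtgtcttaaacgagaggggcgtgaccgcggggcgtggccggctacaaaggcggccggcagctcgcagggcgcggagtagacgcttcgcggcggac
Polr3gl, chr3:96594132-96594431, minus strand: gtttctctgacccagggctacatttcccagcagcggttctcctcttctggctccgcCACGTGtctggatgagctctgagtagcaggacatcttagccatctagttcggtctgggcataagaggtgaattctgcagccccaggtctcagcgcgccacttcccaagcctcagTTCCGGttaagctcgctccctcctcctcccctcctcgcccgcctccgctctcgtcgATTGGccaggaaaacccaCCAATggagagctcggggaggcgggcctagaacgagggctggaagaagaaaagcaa
Ubl7, chr9:57910736-57911035, plus strand: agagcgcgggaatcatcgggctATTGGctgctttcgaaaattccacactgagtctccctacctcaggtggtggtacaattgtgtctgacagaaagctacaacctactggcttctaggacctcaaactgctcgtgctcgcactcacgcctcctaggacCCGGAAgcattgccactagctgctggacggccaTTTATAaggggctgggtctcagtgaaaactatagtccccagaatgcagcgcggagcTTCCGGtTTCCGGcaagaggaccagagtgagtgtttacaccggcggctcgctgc
Nr0b2 holds a TATA box, a GC box and an E box in this window and only 3 CG dinucleotides, against 41 in Sf3a2 and 37 in Rbm38, and Rbm38 holds none of the 6 motifs.

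The RefSeq table held a promoter for 51 of the 71 members and for 404 of the 583 genes. An ETS core was found in 21 of the 51 member promoters (41.2%), in 25.2% of the promoters of the whole comparison and in 15.2% of all 27025 promoters of the table. A GC box occurred in 64.7% of member promoters, 66.1% of those of the comparison and 35.9% of all. The CCAAT box was in 41.2%, 38.1% and 37.9%, the CRE core in 33.3%, 37.6% and 21%, the E box in 15.7%, 12.6% and 7.24%, and the TATA box in 9.80%, 13.1% and 14.2%. The ETS core thus showed the widest difference in share between the members and the comparison. These shares are descriptions, and a match of letters is not a bound site.

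Across the 71 members the mean over the sgClu libraries ranged from 0.269 to 196.0 FPKM with a median of 8.24, and the mean over the sgCtrl libraries had a median of 4.15 FPKM. In the sgClu libraries 67 members averaged at least 1 FPKM, 47 at least 5, 29 at least 10, 9 at least 50 and 4 at least 100. The ratio of the sgClu to the sgCtrl mean ran from 1.34 in Btbd2 to 6.54 in Clba1, with a median of 1.74, and exceeded 2 in 21 members, where 5.83% of all 583 genes exceeded it. Most members were thus moderate shifts in genes of low to middle level, and the largest ratios belonged to genes under 1 FPKM.

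**Figure D1:**
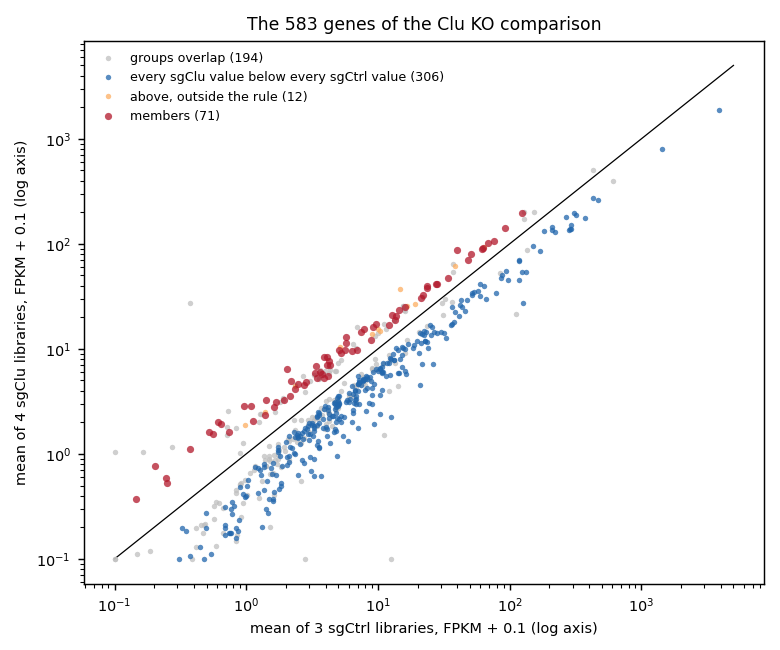
Mean of the 4 sgClu libraries against the mean of the 3 sgCtrl libraries for each of the 583 genes, both in FPKM + 0.1 on log axes, with the line of equal values. The 71 members lie above the line, at sgClu means of 0.269 to 196.0 FPKM, while 306 genes were below every sgCtrl value.

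The comparison of groups by limma on log2(FPKM + 1), read at limits of an unadjusted p of 0.05 and an absolute log2 fold change of 0.5, put 58 members past both limits and 13 not. Over all 583 genes 15.4% were past the limits and higher in sgClu, 50.1% were past them and lower and 65.5% were past them in either direction, and nothing is read from the members' count because the rule used this contrast. By the rule's own measure 14.2% of the 583 genes lay above every sgCtrl value and 52.5% below. The members' log2 fold changes ran from 0.27 to 1.36 with a median of 0.62, against a median of -0.52 over all genes of the comparison. Median-of-ratios scaling over these 583 genes moved the median of all genes to -0.09 and turned the split of calls from 90 higher and 292 lower into 130 higher and 59 lower, and the members' median then stood at 1.15. Relative to the median of all genes the members stood at 1.14 with the values as deposited and at 1.24 after this scaling. The table lists 583 genes rather than a whole transcriptome, and how they were selected is not given in the sources used here, so such scaling rests on a partial list.

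**Figure D2:**
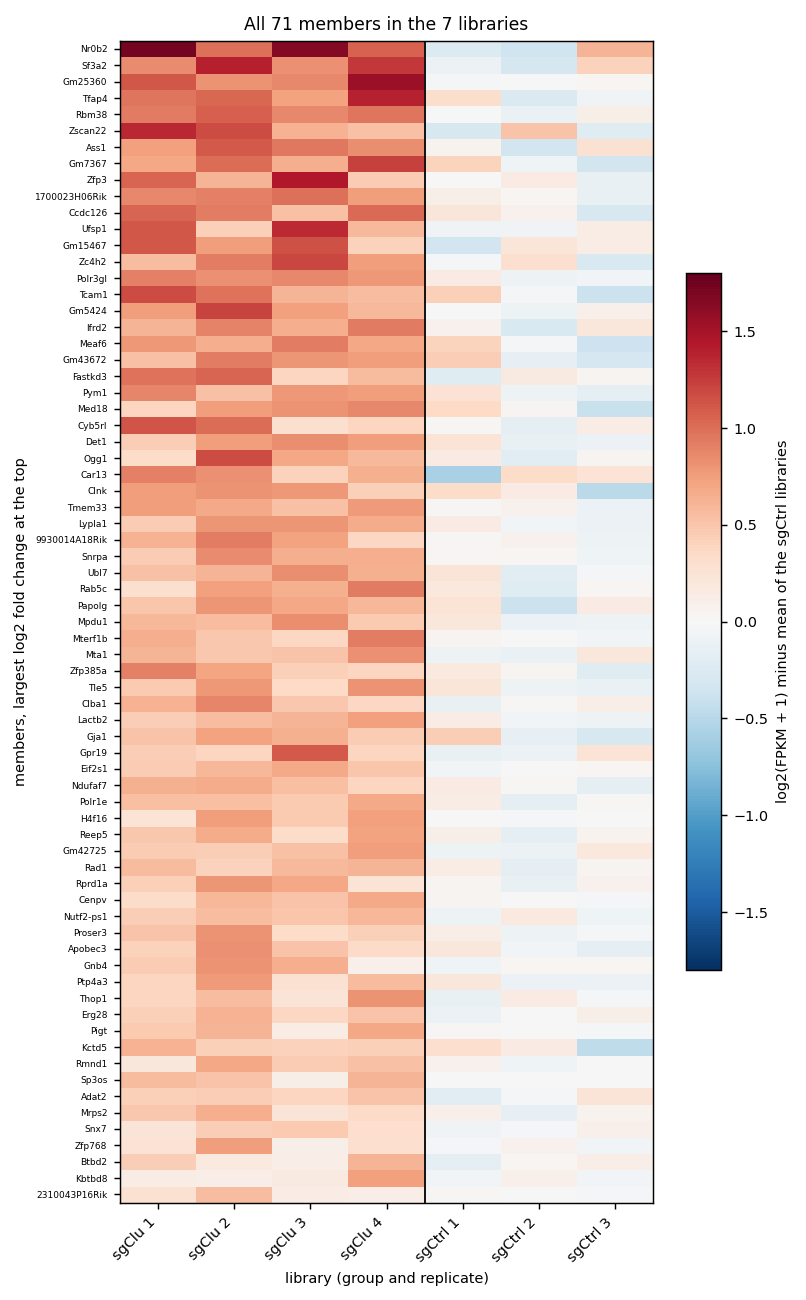
Each of the 71 members (rows, largest log2 fold change at the top) in the 7 libraries (columns), as log2(FPKM + 1) minus the mean of the 3 sgCtrl libraries. The 4 sgClu columns are red throughout, and their order by height differs from gene to gene.

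Within the sgClu group no single library carried the members. Replicate 2 held the highest sgClu value of 25 members, replicate 4 of 23, replicate 3 of 13 and replicate 1 of 10, while the lowest value fell in replicate 3 for 24 members and in replicate 2 for 10. Among the sgCtrl libraries, replicate 1 held the highest value, the one that each member had to exceed, for 38 of the 71. The members' values added up to 1554 to 1746 FPKM per sgClu library and to 1010 to 1098 FPKM per sgCtrl library. This was between 12.7% and 14.9% of the sum over all 583 genes in sgClu and between 5.86% and 5.94% in sgCtrl, shares that also move with the many lower genes in the denominator. The coefficient of variation of a member had a median of 15.5% among the sgClu libraries and 15.4% among the sgCtrl libraries.

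The width of the gap differed widely between members. The lowest sgClu value was 1.22 times the highest sgCtrl value at the median, over 1.5 times in 11 and over 2 times in Clba1 and 2310043P16Rik. At the threshold stood Btbd2, with 5.84, 4.69, 4.49 and 6.71 FPKM in sgClu replicates 1 to 4 and 3.52, 4.20 and 4.49 FPKM in sgCtrl replicates 1 to 3, a ratio of 1.0008. Gja1, which encodes the gap junction protein connexin 43, followed at 1.02 with 2.95, 3.53, 3.29 and 2.78 FPKM in sgClu and 2.73, 1.48 and 1.25 in sgCtrl. For Gja1 the sgCtrl replicate 1 alone came near the sgClu values. Just outside stood Gm4828 (11.5, 11.6, 10.1 and 19.0 FPKM in sgClu and 10.1, 10.1 and 8.08 in sgCtrl), with a ratio of 0.99996. Lipt2, a lipoyl transferase gene, missed at 0.9998 with 7.03, 11.0, 13.8 and 12.1 FPKM in sgClu and 7.03, 6.12 and 5.86 in sgCtrl. Rnf126, a ubiquitin ligase gene, missed at 0.999 with 17.3, 31.2, 22.9 and 30.8 FPKM in sgClu and 17.4, 14.0 and 14.8 in sgCtrl. Lipt2 and Rnf126 each missed because sgClu replicate 1 was level with the highest control value, although their other sgClu values were well above it. The border of the set is therefore sharp in rule but not in measured level.

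**Figure D3:**
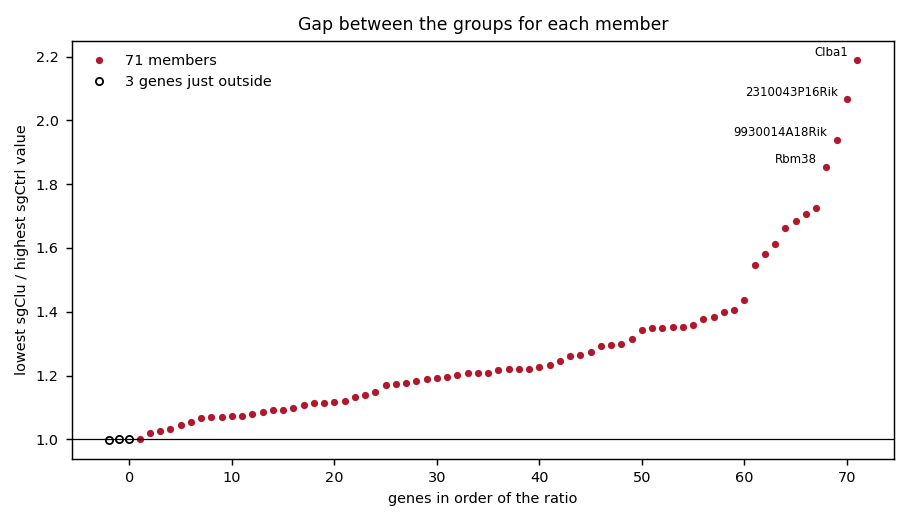
Lowest sgClu value divided by the highest sgCtrl value for each of the 71 members in ascending order, with the 3 genes just outside as open circles. The ratio rises slowly from 1.0008 to about 1.4 and steeply over the last members to 2.19 in Clba1.

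Genes of RNA processing, the transcription machinery and translation formed the largest group, with 16 members among the 21 genes of this list in the comparison (76.2%, where 12.2% of all 583 genes were members). This list and the lists below were written with results of these data known and are no independent evidence. Their calls stand beside 15.4% past both limits and higher and 50.1% past them and lower over all 583 genes. Over the 21 listed genes 15 were past both limits and higher and 0 were past them and lower. Their median log2 fold change was 0.61 beside -0.52 over all genes. The 0 lower holds for the listed genes only. Pcf11, Cpsf7, Cwc25, Ccnt1 and Med13, genes of RNA processing and transcription outside the list, lay below every sgCtrl value. Their means were 4.995, 6.49, 6.02, 16.0 and 1.42 FPKM in sgClu and 7.61, 10.2, 9.87, 25.5 and 2.33 in sgCtrl.

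Among the splicing components, Snrpa, which encodes the A protein of the U1 splicing particle, had the highest mean of all members and measured 170.8, 224.0, 194.9 and 194.2 FPKM in sgClu and 127.3, 126.8 and 117.0 in sgCtrl, a ratio of means of 1.58. The groups stood apart by more than the whole sgCtrl range. Sf3a2, a subunit of the SF3A complex of the U2 particle, measured 10.6, 16.0, 10.4 and 14.6 FPKM in sgClu and 4.99, 4.22 and 7.59 in sgCtrl, 12.9 ± 2.81 (SD, n = 4) against 5.60 ± 1.76 (SD, n = 3) and a log2 fold change of 1.09 (SE 0.22). Its sgClu values fell into a lower and a higher pair. Its exons overlap those of Plekhj1 on the opposite strand. The library chemistry does not keep the strand, so reads of the 2 genes cannot be told apart where they overlap.

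Of the RNA-binding and RNA-modifying members, Rbm38, an RNA-binding protein that acts on the stability of messenger RNAs and is known as a target of p53, was one of the most cleanly separated. It measured 8.12, 9.06, 7.65 and 8.29 FPKM in sgClu and 3.80, 3.38 and 4.12 in sgCtrl, 8.28 ± 0.585 (SD, n = 4) against 3.77 ± 0.374 (SD, n = 3), and the lowest sgClu value was 1.86 times the highest sgCtrl value. The log2 fold change was 0.96 (SE 0.12). Papolg, a poly(A) polymerase, averaged 1.89 times its sgCtrl mean, Pym1, which helps take the exon junction complex off messenger RNAs, 1.82 times, and Adat2, the catalytic subunit of the enzyme that edits the wobble base of tRNAs, 1.39 times. Pym1 and Papolg were past both limits and Adat2 was not, with a log2 fold change of 0.44.

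Several members work with the RNA polymerases. Polr3gl, a subunit of RNA polymerase III, measured 10.1, 9.50, 9.73 and 9.20 FPKM in sgClu and 5.54, 4.56 and 4.70 in sgCtrl, 9.62 ± 0.363 (SD, n = 4) against 4.93 ± 0.529 (SD, n = 3), with a log2 fold change of 0.84 (SE 0.12). The 4 sgClu values lay within 1 FPKM of each other and well above the controls. Polr1e, a subunit of RNA polymerase I, averaged 1.5 times its sgCtrl mean, Med18, a subunit of the Mediator complex, 1.79 times, and Rprd1a, which binds the tail of RNA polymerase II, 1.70 times. All 4 genes were past both limits.

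Chromatin and transcription regulators were also present. Meaf6, a subunit shared by histone acetyltransferase complexes, measured 39.9, 36.6, 44.2 and 37.5 FPKM in sgClu and 30.3, 22.4 and 17.4 in sgCtrl, with a log2 fold change of 0.76 (SE 0.19). Here the sgCtrl libraries spread more than the sgClu libraries, and sgCtrl replicate 1 was nearest to the sgClu values. Tfap4, a helix-loop-helix factor that binds E boxes, was low in the controls, with 2.56, 2.75, 2.02 and 3.79 FPKM in sgClu and 1.28, 0.525 and 0.756 in sgCtrl and a log2 fold change of 1.03 (SE 0.20). Its ratio of means was 3.26, the largest of the list. Mta1, a subunit of the NuRD remodelling complex, averaged 1.67 times its sgCtrl mean, and Tle5, a short co-regulator of the Groucho family, 1.53 times. Tle5 was among the most abundant members at 119.1 to 162.8 FPKM in sgClu and 84.5 to 107.5 in sgCtrl.

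Eif2s1, the alpha subunit of initiation factor eIF2 that stress kinases phosphorylate to slow translation, measured 93.8, 103.0, 109.9 and 96.2 FPKM in sgClu and 65.7, 68.4 and 69.5 in sgCtrl. Both groups were tight and lay far apart for their spread, at a ratio of means of 1.49. Thop1, a peptidase that does not belong to these machines although it was put on the list, averaged 1.55 times its sgCtrl mean and was not past both limits.

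**Figure D4:**
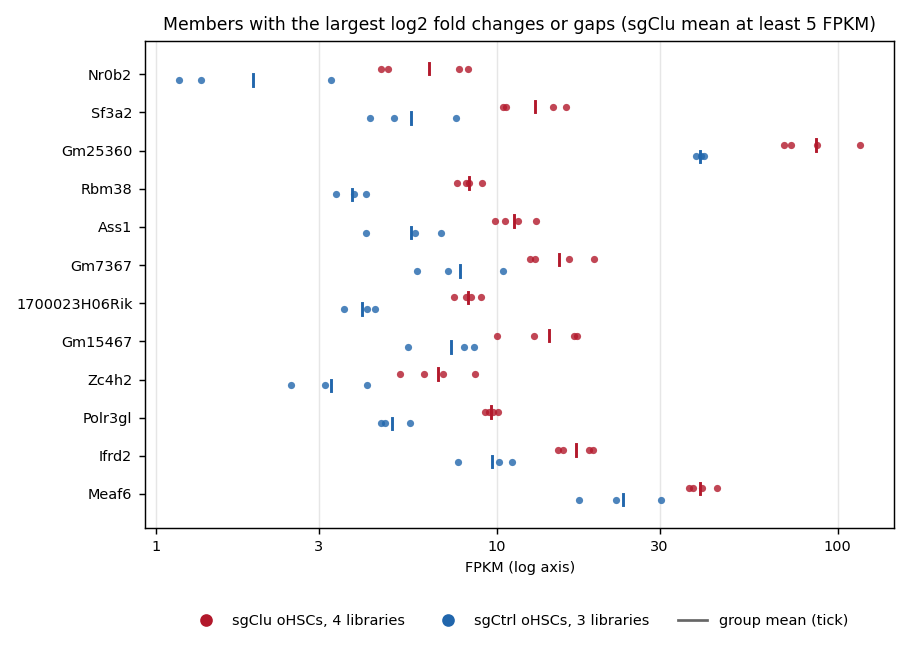
FPKM on a log axis in each library for the 12 members with the largest log2 fold change at an sgClu mean of at least 5 FPKM, which include the 5 with the widest gap. Points are libraries, ticks are group means, and in each of the 12 genes all 4 sgClu points lie to the right of all 3 sgCtrl points.

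Mitochondrial members made up 7 of the 14 genes that 2 mitochondrial lists placed in the comparison, where 12.2% of all 583 genes were members. Of the list of mitochondrial gene expression, 4 of 7 genes were members, 3 of the 7 were past both limits and higher and 1 was past them and lower. On neither list are mt-Rnr1 and mt-Rnr2, the 2 genes of the mitochondrial genome in the comparison. Their means were lower in sgClu, at 88.2 and 395.6 FPKM against 134.6 and 612.6 in sgCtrl, but not every sgClu value lay below every sgCtrl value. Fastkd3, a FAST kinase domain protein that handles mitochondrial RNA, measured 18.5, 19.7, 12 and 13.7 FPKM in sgClu and 7.58, 10.1 and 9.35 in sgCtrl. In this gene sgClu replicates 1 and 2 stood clearly above replicates 3 and 4, and replicate 3 was nearest to the highest control. Mterf1b, a paralog of the mitochondrial transcription termination factor, measured 4.87, 4.20, 3.84 and 6.06 FPKM in sgClu and 2.84, 2.71 and 2.61 in sgCtrl. Since 61.3% of the 50-base words of its longest transcript also occur in Mterf1a, which is not among the 583 genes, its value is uncertain. Mrps2, a protein of the small mitochondrial ribosomal subunit, measured 17.3, 19.5, 14.3 and 15.6 FPKM in sgClu and 12.9, 10.8 and 12.7 in sgCtrl, and Rmnd1, which is needed for mitochondrial translation, measured 15.4, 22.1, 18.7 and 19.6 in sgClu and 14.1, 12.5 and 13.2 in sgCtrl. Mrps2 and Rmnd1 had log2 fold changes of 0.43 and 0.47 and were not past both limits, and 38.9% of the words of Rmnd1 are shared, mainly with the pseudogene Gm5512.

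On the list of mitochondrial dynamics and metabolism 3 of 7 genes were members, none of them a gene of mitochondrial fusion or fission. Of the 7 genes 5 were past both limits and higher and 0 were past them and lower. Neither mitochondrial list is complete. Isca1, Coq10b and Slc25a25, genes of mitochondrial proteins outside both lists, lay below every sgCtrl value. Their means were 41.5, 18.0 and 1.11 FPKM in sgClu and 59.8, 37.7 and 3.32 in sgCtrl. Ndufaf7, an assembly factor of respiratory complex I, measured 43.9, 45.1, 41.0 and 36.8 FPKM in sgClu and 30.9, 28.4 and 24.7 in sgCtrl, a log2 fold change of 0.56 (SE 0.14). The gap between its groups was smaller than the range within either. Lactb2, a mitochondrial ribonuclease, measured 3.94, 4.36, 4.56 and 5.04 FPKM in sgClu and 2.99, 2.53 and 2.41 in sgCtrl. Cyb5rl, a cytochrome b5 reductase family member, measured 2.17, 1.92, 0.775 and 0.890 FPKM in sgClu and 0.476, 0.296 and 0.60 in sgCtrl. Its ratio of means of 3.14 came mainly from sgClu replicates 1 and 2, since replicates 3 and 4 were under 1 FPKM.

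Genes of the ubiquitin and ubiquitin-like pathways gave 6 members among 12 listed genes of the comparison (50%, beside 12.2% of all 583 genes). Of the 12 genes 6 were past both limits and higher and 3 past them and lower. These counts hold for the listed genes only. Usp9x, Usp34, Arih2 and Rnf125, ubiquitin pathway genes outside the list, lay below every sgCtrl value. Their means were 2.55, 4.57, 5.93 and 14.4 FPKM in sgClu and 4.655, 6.96, 10.75 and 29.85 in sgCtrl. Ufsp1, a protease for the ubiquitin-like protein UFM1, measured 3.31, 1.66, 4.02 and 1.96 FPKM in sgClu and 0.893, 0.895 and 1.18 in sgCtrl, a log2 fold change of 0.86 (SE 0.23). Its sgClu libraries differed by more than 2 FPKM among themselves. Ubl7, a ubiquitin-like protein, was abundant at 72.6, 77.0, 90.6 and 79.2 FPKM in sgClu and 59.2, 43.8 and 48.8 in sgCtrl. Det1, a substrate adaptor of the COP1 ubiquitin ligase, measured 7.33, 9.38, 9.97 and 9.35 FPKM in sgClu and 6.24, 4.58 and 4.72 in sgCtrl. Ubl7 and Det1 were past both limits. The adaptors of Cullin 3 ligases were close to the border, with Kctd5 at 10.8, 9.29, 9.19 and 9.28 FPKM in sgClu and 8.46, 7.51 and 4.58 in sgCtrl and a log2 fold change of 0.47. Kbtbd8 measured 0.259, 0.252, 0.278 and 0.917 FPKM in sgClu and 0.110, 0.226 and 0.110 in sgCtrl, so that sgClu replicate 4 made most of its ratio of means of 2.87. Kctd5, Kbtbd8 and Btbd2 were not past both limits.

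The list of glycosylation, glycosylphosphatidylinositol (GPI) anchors and the endoplasmic reticulum held 4 members among 9 genes (44.4%, beside 12.2% of all 583 genes). Of the 9 genes 7 were past both limits and higher and 0 past them and lower. That 0 holds for the listed genes only. Outside the list, the glycosylation genes B3gnt5 and B4galt6 and the endoplasmic reticulum gene Suco lay below every sgCtrl value. They averaged 3.9, 0.999 and 5.85 FPKM in sgClu and 6.54, 1.64 and 10.6 in sgCtrl. Tmem33, a membrane protein of the endoplasmic reticulum, measured 39.9, 38.3, 34.3 and 40.4 FPKM in sgClu and 23.8, 24.8 and 21.6 in sgCtrl, 38.2 ± 2.80 (SD, n = 4) against 23.4 ± 1.61 (SD, n = 3). Mpdu1, which is needed to use dolichol-linked mannose, measured 24.7, 23.8, 29.2 and 22.4 FPKM in sgClu and 18.5, 14.7 and 14.9 in sgCtrl. Both genes had gaps of at least 3 FPKM between the groups. Reep5, which shapes tubules of the endoplasmic reticulum, measured 39.0, 44.2, 34.8 and 46.0 FPKM in sgClu and 29.5, 24.5 and 28.8 in sgCtrl. Pigt, a subunit of the transamidase that attaches GPI anchors, measured 2.18, 2.50, 1.52 and 2.71 FPKM in sgClu and 1.33, 1.31 and 1.23 in sgCtrl, with a log2 fold change of 0.48 that was not past the limit.

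Among enzymes of amino acid, lipid, glutathione and nucleotide metabolism 4 of 11 genes were members (36.4%, beside 12.2% of all 583 genes). Of the 11 genes 5 were past both limits and higher and 1 was past them and lower. This list is not complete either. Chka, Asah2, Gda and Ptgs1, genes of lipid and nucleotide enzymes outside it, lay below every sgCtrl value. Their means were 9.94, 0.853, 1.56 and 4.10 FPKM in sgClu and 16.0, 1.71, 3.14 and 8.98 in sgCtrl. Ass1, argininosuccinate synthase, which makes the precursor of arginine, measured 9.85, 13.0, 11.5 and 10.5 FPKM in sgClu and 5.74, 4.13 and 6.86 in sgCtrl, a log2 fold change of 0.91 (SE 0.18). Of its 50-base words 55.3% occur in the pseudogene Gm5424, itself a member at 2.89, 4.37, 2.86 and 2.49 FPKM in sgClu and 1.32, 1.17 and 1.48 in sgCtrl. The ratio of Gm5424 to Ass1 was 0.236 to 0.337 in the sgClu and 0.215 to 0.283 in the sgCtrl libraries. That both were higher in sgClu was fixed by the rule, and how their reads were divided is not known. Lypla1, an acyl-protein thioesterase, measured 20.0, 25.4, 25.4 and 23.2 FPKM in sgClu and 15.9, 13.8 and 13.2 in sgCtrl. Car13, a carbonic anhydrase, measured 4.83, 4.52, 3.14 and 3.88 FPKM in sgClu and 1.08, 2.94 and 2.70 in sgCtrl, and the control values of replicates 2 and 3 came close to sgClu replicate 3. Erg28, an endoplasmic reticulum protein of sterol synthesis, measured 103.1, 118.1, 98.4 and 109.4 FPKM in sgClu and 70.5, 76.0 and 82.3 in sgCtrl. Its log2 fold change of 0.49 was just under the limit, and the gap between its groups was smaller than the range within sgClu.

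The DNA repair and replication list had 3 members among 6 genes (50%, beside 12.2% of all 583 genes). Of the 6 genes 3 were past both limits and higher and 0 past them and lower. Outside the list, the DNA repair gene Neil2 and the telomere gene Terf2 had lower means in sgClu. They were 0.153 and 6.67 FPKM in sgClu and 0.810 and 10.7 in sgCtrl, and only Terf2 lay below every sgCtrl value. Ogg1, the glycosylase that removes oxidised guanine, measured 7.10, 13.5, 9.49 and 8.69 FPKM in sgClu and 6.17, 4.61 and 5.69 in sgCtrl, and sgClu replicate 2 stood above the other libraries. Rad1, a subunit of the checkpoint clamp loaded at DNA damage, measured 33.0, 29.4, 33.1 and 34.0 FPKM in sgClu and 24.1, 19.1 and 22.5 in sgCtrl. Cenpv, a centromere protein placed on this list although it is not a repair enzyme, measured 60.5, 73.2, 68.8 and 77.5 FPKM in sgClu and 49.6, 47.7 and 46.7 in sgCtrl. For Rad1 and Cenpv the whole sgClu group lay above the controls by more than the sgCtrl range, while Ogg1 was the more variable gene.

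Of 22 genes on the zinc finger list in the comparison 4 were members (18.2%, beside 12.2% of all 583 genes), 10 lay below every sgCtrl value, and 6 were past both limits and higher against 5 past them and lower. Zscan22 measured 6.70, 5.73, 3.60 and 3.33 FPKM in sgClu and 1.44, 3.25 and 1.58 in sgCtrl, a log2 fold change of 0.92 (SE 0.27), and only control replicate 2 came near the level of sgClu replicate 4. Zfp3 measured 2.12, 1.31, 3.09 and 1.07 FPKM in sgClu and 0.50, 0.663 and 0.372 in sgCtrl, and Zfp385a 2.05, 1.65, 1.20 and 1.12 in sgClu and 0.833, 0.680 and 0.397 in sgCtrl. Zfp768 was lower still at 0.367, 0.924, 0.230 and 0.419 FPKM in sgClu and 0.118, 0.210 and 0.112 in sgCtrl. All 4 had ratios of means between 2.32 and 3.71 at levels of a few FPKM or less, where a pseudocount of 1 shrinks the log2 fold change.

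The smaller lists each gave 1 or 2 members. Apobec3, a cytidine deaminase that restricts retroviruses, measured 84.2, 111.7, 89.7 and 79.8 FPKM in sgClu and 72.7, 60.7 and 56.0 in sgCtrl, and Clnk, an adaptor of immune receptor signalling, measured 7.13, 7.47, 7.35 and 5.50 in sgClu and 5.10, 4.36 and 2.47 in sgCtrl. They were 2 of 12 genes on the immune list, of which 4 were past both limits and higher and 6 past them and lower. Rab5c, a GTPase of early endosomes, measured 15.6, 21.7, 20.3 and 25.1 FPKM in sgClu and 14.6, 10.7 and 12.9 in sgCtrl. Snx7, a sorting nexin, measured 4.58, 5.48, 5.61 and 4.88 FPKM in sgClu and 3.54, 3.68 and 4.09 in sgCtrl, and its log2 fold change of 0.36 was not past the limit. Rab5c and Snx7 were the members among 8 trafficking and cytoskeleton genes, of which 2 were past both limits and higher and 1 past them and lower. H4f16, a histone H4 gene, measured 1.98, 3.22, 2.49 and 3.20 FPKM in sgClu and 1.52, 1.49 and 1.53 in sgCtrl, 1 of 3 histone genes in the comparison, of which 2 were past both limits and higher and 1 past them and lower. The controls of H4f16 were nearly equal, and its sgClu libraries were spread. Of 8 transporter and channel genes 0 were members, 0 were past both limits and higher and 3 were past them and lower, and the list of small noncoding RNA genes had 0 genes in the comparison.

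**Figure D5:**
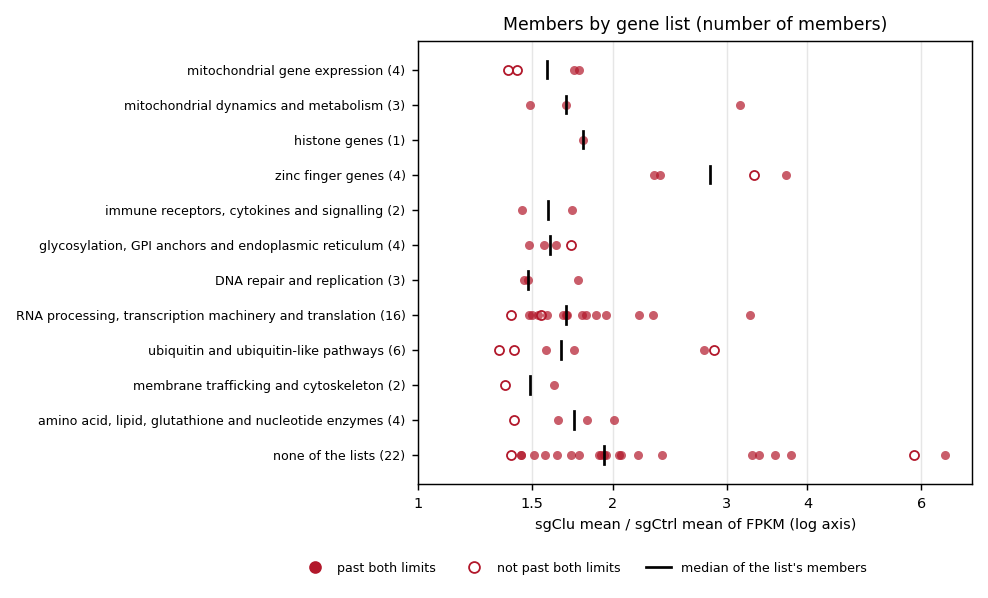
Ratio of the sgClu to the sgCtrl mean of FPKM (log axis) for each member by gene list, with filled points for members past both limits, open points for the 13 others and a tick at the median of the list. Ratios run from 1.34 to 6.54, and open points appear mostly at small ratios and, for Zfp768, Kbtbd8 and 2310043P16Rik, at large ratios of low values.

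Outside the lists stood 22 members of 458 genes (4.80%). Nr0b2, a nuclear receptor that lacks a DNA-binding domain and represses other receptors, had the largest log2 fold change of all members, 1.36 (SE 0.29). It measured 8.23, 4.56, 7.73 and 4.79 FPKM in sgClu and 1.35, 1.17 and 3.26 in sgCtrl, 6.33 ± 1.92 (SD, n = 4) against 1.92 ± 1.16 (SD, n = 3). The sgClu libraries fell into a pair near 8 and a pair near 5, and sgCtrl replicate 3 stood above its fellows. Zc4h2, a zinc finger gene on the X chromosome known for its part in neural development, measured 5.20, 6.96, 8.64 and 6.08 FPKM in sgClu and 3.14, 4.17 and 2.48 in sgCtrl, a log2 fold change of 0.86 (SE 0.20). Ifrd2, a ribosome-associated protein of the interferon-related developmental regulator family, measured 15.1, 18.6, 15.6 and 19.1 FPKM in sgClu and 10.1, 7.70 and 11.1 in sgCtrl, a log2 fold change of 0.77 (SE 0.16). In Zc4h2 the gap between the groups was smaller than the range within either group, and in Ifrd2 it was of about the size of those ranges.

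Noncoding genes and pseudogenes appear among the largest differences. Gm25360, annotated as a small nuclear RNA gene (chr1:72226240-72226430), gave values of 87.2, 69.7, 72.9 and 116.5 FPKM in sgClu and 38.5, 39.7 and 40.4 in sgCtrl, a log2 fold change of 1.08 (SE 0.19). Its controls were almost equal, and of its 50-base words 38.0% occur in other genes. The noncoding gene 1700023H06Rik on chromosome 13 measured 8.11, 8.39, 8.99 and 7.46 FPKM in sgClu and 4.37, 4.14 and 3.56 in sgCtrl, 8.24 ± 0.634 (SD, n = 4) against 4.02 ± 0.420 (SD, n = 3), and it shared none of its words with another gene. Processed pseudogenes followed, with Gm7367 at 13.0, 16.3, 12.5 and 19.2 FPKM in sgClu and 10.4, 7.18 and 5.84 in sgCtrl and Gm15467 at 16.8, 12.8, 17.2 and 9.98 in sgClu and 5.49, 8.53 and 8.02 in sgCtrl. Gm7367 shares 88.7% of its words with Ubald2 and Gm15467 shares 28.3% with other genes, so these values may hold reads of those genes. Likewise Nutf2-ps1, a copy of Nutf2 with 96.1% shared words, stood at 83.1 to 93.2 FPKM in sgClu and 57.0 to 68.9 in sgCtrl, and neither Ubald2 nor Nutf2 is among the 583 genes.

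The other members without a list are given by their ratio of means. Among signalling genes Gnb4, a G protein beta subunit, stood at 1.51, Ptp4a3, a protein tyrosine phosphatase, at 1.44 and the orphan receptor Gpr19 at 1.64. Tcam1 stood at 3.57, Ccdc126 at 3.36, Proser3 at 1.57 and Clba1, whose highest control value was 0.195 FPKM, at 6.54. The noncoding 9930014A18Rik stood at 3.78, 2310043P16Rik at 5.85, Gm42725 at 1.91, Gm43672 at 1.92 and Sp3os, which overlaps Sp3 on the opposite strand, at 1.39. Among these 12 genes Sp3os and 2310043P16Rik were not past both limits.

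Gene features that the rule had not used were set beside those of the comparison. GENCODE M21 matched 69 of the 71 by symbol, and 59 of these were protein coding (85.5%, against 87.8% of the 576 matched genes of the comparison). The longest annotated transcript of a protein-coding member had a median length of 2466 bases, against 3688 over the comparison, 4115 among the genes below every sgCtrl value and 2876 over all 22028 protein-coding genes of the annotation. The gene span had a median of 16310 bases in members, 24016 over the comparison and 17318 over the annotation. The transcripts of members were thus shorter than those of the comparison at the median and nearer to the annotation as a whole. Their GC content had a median of 51.3%, against 49.7% over the comparison.

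Some members start next to another gene. Of the 59 protein-coding members 12 (20.3%) had the start of a gene on the other strand within 1000 bases upstream, against 14.8% over the comparison and 10.8% of the annotation. Among these pairs Ndufaf7 starts 70 bases from Cebpz, Rad1 71 bases from Brix1, Rmnd1 79 bases from Armt1, Fastkd3 85 bases from Mtrr and Erg28 109 bases from Ttll5. The members lay on 18 chromosomes, with 8 on chromosome 10 and 7 on chromosome 7. Of the 69 placed members 5 (7.25%) had another member start within 500 kb, Btbd2, Sf3a2 and Thop1 on chromosome 10 and Clba1 and Mta1 on chromosome 12, a limit chosen after the positions were seen. Of the 576 placed genes of the comparison 41.3% had another of its genes that near, a share that grows with the size of the set. Exons of 18 members (26.1%) overlapped those of another gene, and 8 (11.6%) shared at least 10% of their 50-base words with other genes, against 30.9% and 8.85% over the comparison. The library chemistry does not keep the strand, so values of members whose exons overlap a gene on the opposite strand, Snrpa, Sf3a2, Rbm38, Polr3gl, Ogg1, Apobec3, Mpdu1, Tmem33 and Det1 among them, may hold reads of the gene on the opposite strand. Lypla1 overlaps Gm37988 on its own strand, so its reads could be divided between them as well. No test was run on any of these features.

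Marker genes of blood cells were looked up beside the members. Of 12 HSC markers only Procr and Fgd5 are among the 583 genes. Procr measured 4.95 to 11.7 FPKM in sgClu and 10.8 to 22.5 in sgCtrl. Fgd5 measured 0.193 to 0.519 FPKM in sgClu and 0.312 to 2.48 in sgCtrl. Their log2 fold changes were -0.76 and -0.63, and only Procr was past both limits. With so few of the 12 markers listed, the cell type of the labels could not be checked. The neutrophil genes S100a8 and S100a9 summed to between 8.42 and 51.8 FPKM in sgClu and between 16.1 and 176.8 in sgCtrl, 2 of 8 markers. The monocyte genes Ly6c2 and C1qb, 2 of 9 markers, summed to between 107.1 and 173.9 FPKM in sgClu and between 225.0 and 322.4 in sgCtrl, nearly all of it Ly6c2. C1qb went the other way, listed at 0 in all 3 sgCtrl libraries and at 0, 1.39, 0.355 and 2.02 FPKM in sgClu replicates 1 to 4. The mast cell gene Tpsb2, 1 of 7 markers, was listed at 0 in the 4 sgClu libraries and in 1 sgCtrl library and reached 34.7 FPKM in another. No marker of B cells, T cells, NK cells, erythroid cells, megakaryocytes or dendritic cells is among the 583 genes, and none of the markers is a member. The part of these cell types in the members' values was not tested.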

How the data were processed

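TrimGalore, Hisat2 (on mm10), FeatureCounts and DESeq2 were the authors' tools for trimming, alignment, gene counting and calling. The builds GRCm38 and mm10 are given in the submitters' processing notes. The values the authors deposited carry no unit in their headers and were taken as FPKM, with TPM possible. The table lists 583 genes, chosen in a way that is not given in the sources used here, 2 of them at 0 in all 7 libraries, and its sums are no depths. The depth could not be recovered, since values under 1 FPKM gave no step of whole reads in 21 pairs of libraries (at most 5.56% of genes within 1%).

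Members and gene lists were chosen with earlier results of these data known. Groups and replicate numbers come from the sample titles. Values in every library are given for the 12 members with the largest log2 fold change and the 5 with the widest gap (both at an sgClu mean of at least 5 FPKM), the 3 members nearest the threshold, the 3 genes just outside and up to 4 members of each of 13 lists. Any further gene was picked with its values in view. limma (version 3.58.1, R 4.3.3) was fitted to log2(FPKM + 1) of all 583 genes, without covariates, in place of a count model, since no counts were given. TMM and median-of-ratios factors were computed over the listed genes. Gene models are GENCODE M21 and promoters RefSeq, matched by symbol. The 7 libraries of the age comparison were used only for their gene names. Alternatives were other pseudocounts, filters, scalings, limits, a mean-variance trend, a replicate block and each library left out in turn.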

Additional observations from a re-analysis of the deposited data

Results flagged for a closer look

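Among the 71 members and the 3 genes just outside, 4 genes had an sgClu library far from the other sgClu libraries, by a gap whose share of the group's range was above Dixon's 95% critical value for 4 samples. Chance flags about 1 in 20 groups. Kbtbd8 measured 0.917 FPKM in sgClu replicate 4 and 0.252 to 0.278 in the others. Gpr19 measured 10.1 FPKM in sgClu replicate 3 and 5.77 to 6.04 in the others. Kctd5 measured 10.8 FPKM in sgClu replicate 1 and 9.19 to 9.29 in the others. Gm4828, just outside the members, measured 19.0 FPKM in sgClu replicate 4 and 10.1 to 11.6 in the others. Kbtbd8, Gpr19 and Kctd5 remain members without these libraries, because membership rests on the lowest sgClu value.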

How the results depend on the processing

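All 71 members kept a positive log2 fold change under the alternatives run, the smallest being 0.14, a direction that the choice of members fixes. The number of genes that meet the rule rose from 71 to 114 after median-of-ratios, 112 after TMM and 111 after column-total scaling over the 583 genes. All 3 scalings raised every sgClu library and lowered every sgCtrl library. The 71 members therefore had to stay among these genes, and the number could not fall. With each library left out in turn the number was 75 to 90, which can only grow, and the filter at a group mean of 1 FPKM left 67. The rule uses neither a pseudocount nor a model, so those settings gave no value. Of the members, 58 were past both limits, 48 to 61 with a library left out and 4 at a log2 fold change limit of 1. Their median log2 fold change of 0.62 became 0.79 with a pseudocount of 0.1, 1.15 after median-of-ratios, 1.17 after TMM and 1.11 after column-total scaling, and was 0.59 to 0.68 with a library left out. The cause was not tested. The correlations of same-numbered libraries were -0.10, 0.07 and 0.06. They showed no pairing by number, but with so few libraries they cannot exclude it. Under a replicate block 50 members were past both limits at a median of 0.66. In that fit sgClu replicate 4 has no control of its number. The block's log2 fold changes are therefore those obtained without that library, and it is no separate check of them. For the 45 named members 634 of 719 values under alternatives kept their side of the limits, 54 lost it, 33 of them at the higher fold change limit, 31 gained it and 0 reversed. DESeq2 was not run, as no counts were given. The depth of each library is unknown, so counting error cannot be given for any value.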
